A study of Mus musculus with 39 samples.

Results

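The 31 genes described here make, take up, store and export cholesterol. They were chosen by name and read from the probes whose gene symbol in the series table is 1 of the 31, out of 29411 gene symbols on the array. Where a gene had several probes, the one with the highest mean signal was used. All 31 had a probe that passed the filter on dim probes. They comprised 17 enzymes of cholesterol synthesis, 4 genes of the sterol sensing system, 5 genes of cholesterol storage and transport inside the cell, 2 sterol-activated nuclear receptors and 3 genes of cholesterol efflux.

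Cells obtain cholesterol by building it from acetyl-CoA through mevalonate, squalene and lanosterol, or by taking up lipoproteins. When sterol in the endoplasmic reticulum is low, the escort protein Scap carries the transcription factor SREBP2 (gene Srebf2) to the Golgi, where it is cut and released to switch on the synthesis enzymes. The Insig proteins hold Scap back when sterol is high. In the opposite state, oxidised sterols activate the liver X receptors LXRα and LXRβ (Nr1h3 and Nr1h2), which switch on the efflux genes Abca1, Abcg1 and Apoe. In macrophages this efflux arm is known for removing cholesterol taken in with debris and lipoproteins.

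RNA came from C57BL/6J mice, and the tissue label reads brown infiltrating macrophages, with SVCs in brackets. Mice weaned at 3 to 4 weeks of age received a low fat diet (LFC, 10 arrays), a high fat and high sucrose diet (HFC, 11 arrays), or that second diet with the botanical formulation KAL-1 at 5, 20 or 75 µg (HF5, HF20 and HF75, with 6 arrays each). LFC and HFC were sampled at Day 1, 6, 10 and 14 and at Week 0, 3, 9, 12, 15 and 18, HFC also at Week 6, and the KAL-1 groups at Week 3, 6, 9, 12, 15 and 18. There was 1 array per diet and time label, so the only spread is that over time labels, and whether an array held 1 animal or a pool was not stated. The design text speaks of 3 biological replicates, and how these relate to the 1 array per diet and time label is not given in the sources used here.

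Values are log2 of the background-corrected spot intensity minus the 75th percentile of the array, so a level of 0 is the 75th percentile of all spots. Array brightness at that percentile ran from 18.1 to 3974 intensity units, and between 31.2% and 98.0% of spots were well above background. Spots marked as outliers were dropped, which took 71.4% of the spots of the HF20 Week 15 array. The titles of 9 arrays carry the letters BA or BAT, which the labels do not explain: HFC Day 1 and Week 9, LFC Day 6, Week 12 and Week 18, HF5 Week 9 and Week 15, HF20 Week 12 and HF75 Week 15. These are called the titled arrays below. They differed from the other 30 on average, though not each of them did, so results are given with and without them. In the series table the LFC and HFC columns for Day 14 are headed the other way round from the samples, and the Week 12 HF20 array carries a characteristic naming the high fat diet alone. Against the tissue label, 7 of 12 macrophage markers were well above background on all 39 arrays, and so were 11 of 12 general adipocyte markers with a probe, Adipoq and Fabp4 among them. With bulk RNA, fewer cells of a type and less RNA per cell cannot be told apart.

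The synthesis enzymes were compared first between the high fat and low fat diets. The fitted difference, HFC minus LFC with the time label in the model, was below 0 for 16 of 17 enzymes, with a median of -0.49 and a range of -1.17 to 0.11. Over all 34036 probes the median was 0.05 and 45.8% of probes were below 0. No member passed the adjusted threshold of 0.05 in limma, where 0% of all probes were called and no adjusted p was below 0.104. With the limit of 0.05 set on the p before adjustment, 3 enzymes were lower and 0 members were higher, against 0.855% of all probes lower and 1.96% higher. Those 3 enzymes were Pmvk, Mvd and Sc5d.

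Pmvk, phosphomevalonate kinase, phosphorylates mevalonate phosphate. Its level on the LFC arrays had a lowest value of 2.16, a median of 2.94 and a highest of 5.38, and on the HFC arrays 1.35, 1.86 and 3.52. The ranges overlapped, but HFC was lower at 9 of 10 time labels. The difference was -1.17 (SE 0.43, 95% interval -2.06 to -0.28), a 2.25-fold lower level, with a limma p of 0.0119 before and 1 after adjustment over all probes. A second Pmvk probe gave the same difference, -1.17 (SE 0.50).

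Mvd, which decarboxylates mevalonate diphosphate to the first isoprenoid, ran from -2.23 through a median of -0.80 to 0.69 on LFC arrays and from -2.72 through -1.80 to -0.91 on HFC arrays. HFC was lower at 8 of 10 time labels. The Mvd difference was -0.94 (SE 0.35, limma p = 0.0122, adjusted p = 1). Sc5d, the desaturase of a late sterol step, ran from 1.07 through 1.53 to 3.90 on LFC arrays and from 0.53 through 1.07 to 1.96 on HFC arrays. Although the ranges overlapped, Sc5d was lower in HFC at 10 of 10 time labels, with a difference of -0.79 (SE 0.33, limma p = 0.0243, adjusted p = 1).

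**Figure D1:**
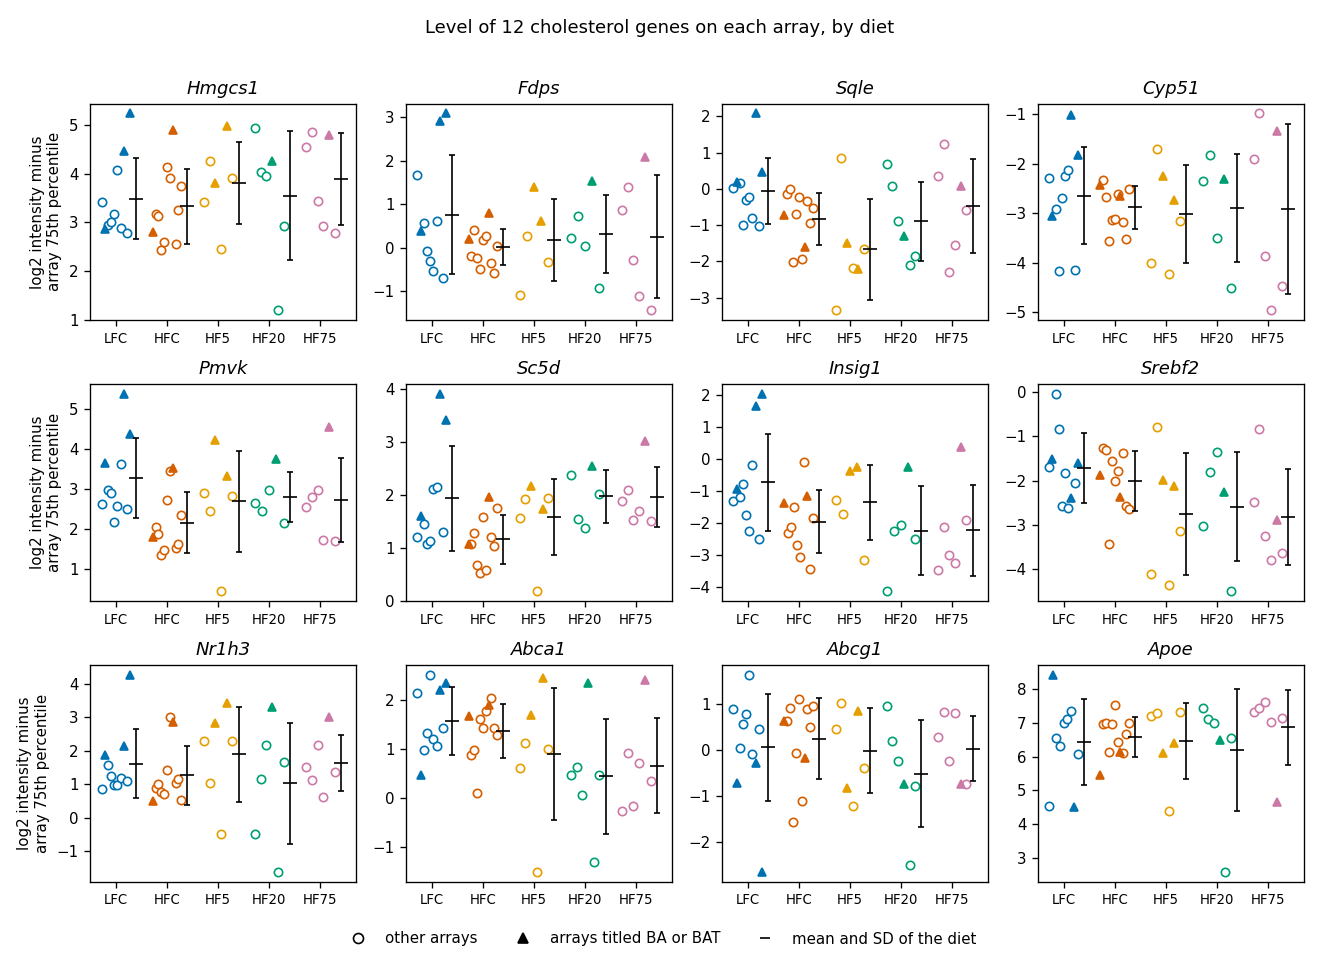
Level of 12 member genes on each array (log2 intensity minus the array's 75th percentile) by diet group, with each point 1 array, bars at the group means and triangles for the 9 titled arrays. The Pmvk points of HFC (1.35 to 3.52, median 1.86) reach below the lowest point of LFC (2.16) and overlap its lower range, and triangles lie toward the top of most synthesis panels.

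Of the other mevalonate enzymes, Acat2, which joins the first acetyl groups, ran from -0.49 to 1.29 on LFC arrays (median 0.33) and from -1.06 to 1.22 on HFC arrays (median -0.37). It was lower in HFC at 10 of 10 time labels, by a small margin that missed the unadjusted threshold, with a difference of -0.49 (SE 0.30, limma p = 0.12). Hmgcs1, the synthase that makes HMG-CoA, had a median of 3.09 in LFC and 3.16 in HFC. Its HFC level was lower at 5 of 10 labels, and the difference was -0.25 (SE 0.41). Mvk, mevalonate kinase, was the enzyme with a difference above 0, at 0.11 (SE 0.39), and its sign turned under quantile normalization and under normexp background correction. Fdps, which joins isoprenoid units into farnesyl diphosphate, ran from -0.71 through 0.47 to 3.09 in LFC and from -0.57 through 0.03 to 0.79 in HFC, so the HFC arrays lay within the span of the LFC arrays. Its difference was -0.82 (SE 0.50), and that of Idi1, the isomerase before it, -0.60 (SE 0.36).

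In the squalene steps, Sqle, the epoxidase that commits squalene to sterols, ran from -1.03 through -0.11 to 2.08 in LFC and from -2.02 through -0.69 to -0.01 in HFC. Its HFC level was lower at 8 of 10 labels, with a difference of -0.89 (SE 0.45, limma p = 0.0571, adjusted p = 1). Lss, which closes the sterol rings to lanosterol, differed by -0.90 (SE 0.56) and was lower at 8 of 10 labels. Fdft1, squalene synthase, differed by -0.38 (SE 0.56), while its second and dimmer probe, well above background on 11 arrays, gave 0.75 (SE 0.46). Cyp51, the demethylase that opens the later steps, ran from -4.16 through -2.50 to -1.02 in LFC and from -3.55 through -2.67 to -2.34 in HFC, with a difference of -0.36 (SE 0.45). Further Cyp51 probes gave -0.05 (SE 0.37) and 0.23 (SE 0.46). The 7 enzymes from Cyp51 onward were all below 0, from -0.31 for Ebp, the sterol isomerase, to -0.79 for Sc5d, and Dhcr7, the final reductase of one branch, was at -0.64 (SE 0.56).

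**Figure D2:**
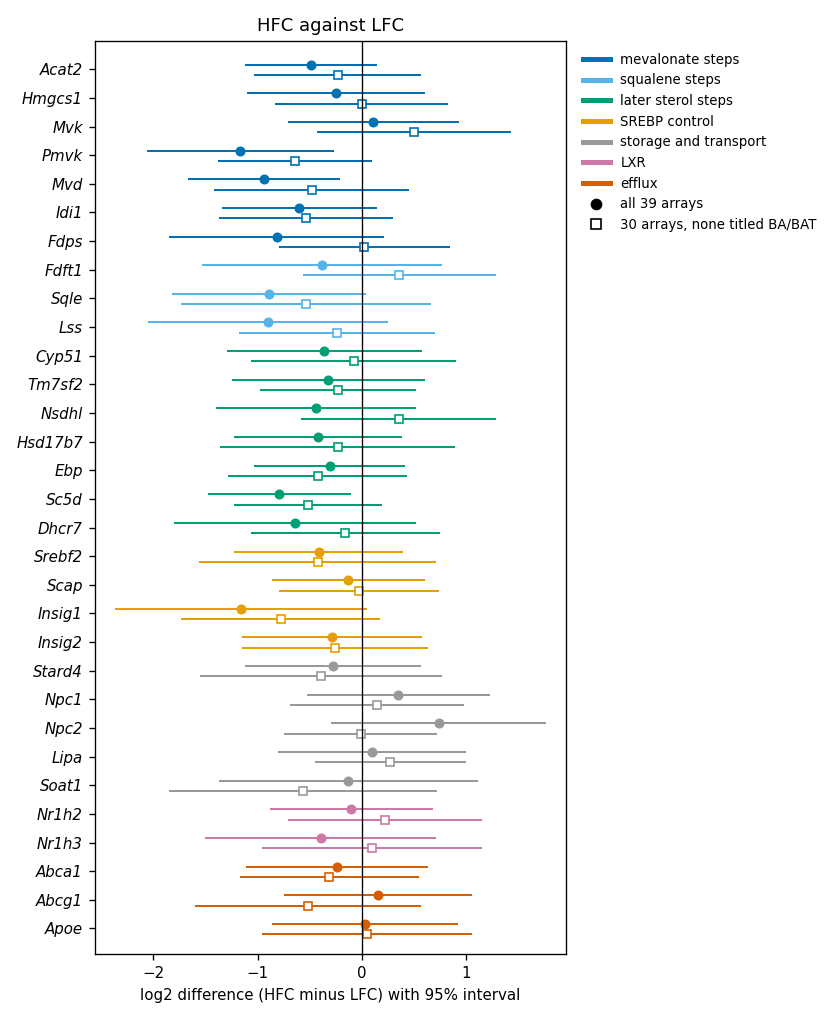
Difference HFC minus LFC on the log2 scale for each of the 31 genes, ordered by role, with bars for the 95% interval, from all 39 arrays and from the 30 arrays that are not titled. With all arrays the interval of Pmvk runs from -2.06 to -0.28, and without the titled arrays the Pmvk difference is -0.64.

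The titled arrays were not spread evenly, since the LFC arrays of Week 12 and Week 18 were titled and the HFC arrays of those weeks were not. Without the 9 titled arrays, 13 of 17 enzymes were below 0, the median was -0.23, and 0 members were under the unadjusted threshold, where 2.43% of probes were. Pmvk was then at -0.64 (SE 0.35, limma p = 0.0816), Mvd at -0.48 (SE 0.44) and Sc5d at -0.52 (SE 0.34). Fdps, Fdft1 and Nsdhl turned to differences above 0. With the title as a term in the model instead, 16 of 17 enzymes were below 0 with a median of -0.41, and 4 members were under the unadjusted threshold, where 3.58% of probes were. These were Pmvk at -1.01 (SE 0.31, limma p = 0.00267, adjusted p = 0.971), Mvd at -0.88 (SE 0.33, p = 0.013), Sc5d at -0.68 (SE 0.26, p = 0.0131) and Insig1 at -1.10 (SE 0.41, p = 0.0131). Over 29 alternative settings, 12 of the 17 enzymes, among them Pmvk, Mvd, Sqle, Lss, Sc5d and Dhcr7, stayed below 0 in each, as did Insig1 and Insig2, and the smallest adjusted p of a member was 0.167, for Pmvk.

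The promoters of these enzymes are shown because SREBP2 is known to act at them together with the CCAAT-binding factor NF-Y. RefSeq windows from 250 bases before to 50 bases after the gene start (GRCm38.p6) were searched on both strands. A window was matched for 14 of 17 synthesis genes, and Fdps, Fdft1 and Sqle had none. The CCAAT box (CCAAT or ATTGG) was found in 13 of these 14 genes, against 41.1% of all 27025 genes with a window, and in 0 of 4 LXR and efflux genes. A sterol regulatory element (TCACNCCAC on either strand) was found in 1 of the 14, Hmgcs1, against 1.44% of genes. The E-box (CACGTG), which overlaps neither of the others, was found in 3 of 14 against 8.09% of genes. The direct repeat 4 bound by LXR with its partner RXR was found in 0 of the 14 and in 0 of the 4, against 0.0148% of genes. At so low a share, a count of 0 says nothing about these promoters. A match is a description of letters and not of binding.

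The Hmgcs1 stretch at chr13:119690104-119690320 on the plus strand is printed 5′ to 3′ with the sterol element, which ends 128 bases before the start, and 3 CCAAT boxes in capitals.
Hmgcs1: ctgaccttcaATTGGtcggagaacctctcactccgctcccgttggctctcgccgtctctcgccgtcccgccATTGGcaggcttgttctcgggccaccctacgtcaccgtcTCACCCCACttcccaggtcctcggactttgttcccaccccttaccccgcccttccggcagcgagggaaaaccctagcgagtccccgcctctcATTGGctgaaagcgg

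Short stretches around the CCAAT box follow for the 3 enzymes lowest by p in HFC, for Lss and Dhcr7, the enzymes with the 2 greatest differences on the titled arrays, and for Insig1. They come from chr3:89454393-89454421 on the plus strand (Pmvk), chr8:122443433-122443461 on the minus strand (Mvd), chr9:42264308-42264336 on the minus strand (Sc5d), chr10:76531531-76531559 on the plus strand (Lss), chr7:143830153-143830181 on the plus strand (Dhcr7) and chr5:28071184-28071212 on the plus strand (Insig1). Capitals mark the box, which ends 131, 22, 19, 57, 44 and 211 bases before the start in that order of genes.
Pmvk: aactcaggttggCCAATtcacagcatcta
Mvd: ccggccagcgggCCAATcatatggcagcg
Sc5d: cgccggctgctgATTGGccggctgcctgc
Lss: ggtgatgctctgATTGGccgagctcgcat
Dhcr7: aatccacttccgATTGGtcgtctgtgacc
Insig1: cgccctcctcccATTGGctccggcggcct

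The sterol sensing genes gave differences below 0 for 4 of 4 as well, with none past the adjusted threshold and a median difference of -0.35. Insig1, the sterol-dependent anchor of Scap and itself an SREBP target, ran from -2.48 through -1.06 to 2.02 in LFC and from -3.42 through -1.97 to -0.10 in HFC. It was lower in HFC at 9 of the 9 time labels where both arrays had a value, and the difference was -1.16 (SE 0.58, limma p = 0.0584, adjusted p = 1). Insig1 was measured on 31 arrays well above background and 3 of its spots were dropped. Srebf2 ran from -2.61 through -1.76 to -0.05 in LFC and from -3.43 through -1.88 to -1.26 in HFC, and these ranges overlapped. Srebf2 at -0.42 (SE 0.39), Insig2 at -0.29 (SE 0.42) and Scap at -0.13 (SE 0.35) had intervals that included 0, and the sign for Srebf2 and Scap turned under array weights. With the Day 14 labels exchanged, a setting chosen after the data were seen, Srebf2 was at 0.088.

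Genes of storage and transport showed no common direction between the diets, with 3 above and 2 below 0 and a median of 0.10. Npc2, which hands lysosomal cholesterol to Npc1, had the greatest difference of the 5, 0.74 (SE 0.50, limma p = 0.151). That value rested on LFC Day 1, where Npc2 was at -4.38 against a LFC median of 2.78, and without Day 1 the difference was 0.13. Npc1 at 0.35 (SE 0.42), the lysosomal lipase Lipa at 0.10 (SE 0.44), the transfer protein Stard4 at -0.27 (SE 0.41) and the esterifying enzyme Soat1 at -0.13 (SE 0.60) had intervals that included 0.

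The efflux genes and their receptors gave differences from -0.39 to 0.16 between HFC and LFC, with intervals that included 0. Abca1, the transporter that loads cholesterol onto apolipoprotein particles, ran from 0.48 through 1.37 to 2.50 in LFC and from 0.11 through 1.44 to 2.05 in HFC. Its difference was -0.24 (SE 0.42), and under normexp background correction it was 0.17. Abcg1, the transporter to mature particles, was at 0.16 (SE 0.44), and below 0 under quantile normalization, with array weights and without the titled arrays. Apoe, the lipoprotein component that macrophages secrete, was at 0.03 (SE 0.43), with its probe saturated on 6 arrays. The 95% intervals ran from -1.10 to 0.63 for Abca1, from -0.74 to 1.05 for Abcg1 and from -0.85 to 0.92 for Apoe. Nr1h3 ran from 0.85 through 1.21 to 4.25 in LFC and from 0.50 through 1.00 to 3.01 in HFC. The difference was -0.39 (SE 0.54) for Nr1h3 and -0.10 (SE 0.38) for Nr1h2.

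Synthesis was set against efflux array by array, with each gene centred on its mean over the 39 arrays and averaged within its list. The mean of the synthesis list was 0.29 ± 0.82 (SD, n = 10) in LFC, -0.22 ± 0.39 (n = 11) in HFC, -0.08 ± 0.69 (n = 6) in HF5, -0.28 ± 1.00 (n = 6) in HF20 and 0.03 ± 0.79 (n = 6) in HF75. The mean of the efflux list was 0.13 ± 0.48, 0.19 ± 0.47, -0.09 ± 0.98, -0.50 ± 1.24 and -0.02 ± 0.37 in the same order. Synthesis minus efflux was 0.16 ± 1.22 in LFC, -0.42 ± 0.61 in HFC, 0.02 ± 0.68 in HF5, 0.22 ± 0.52 in HF20 and 0.04 ± 0.93 in HF75. All 5 groups overlapped on each of these measures. Several of these means rested on few arrays. Without the titled arrays the synthesis mean was -0.096 ± 0.41 (n = 7) in LFC, -0.29 ± 0.37 (n = 9) in HFC, -0.38 ± 0.63 (n = 4) in HF5, -0.51 ± 0.92 (n = 5) in HF20 and -0.20 ± 0.63 (n = 5) in HF75, and synthesis minus efflux in LFC was -0.41 ± 0.64. Without HF20 Week 15, where 6 of the 17 enzymes had a value, the HF20 mean was 0.075 ± 0.58 (n = 5) for synthesis and -0.0074 ± 0.35 for efflux. Without HF5 Week 12 the HF5 mean was 0.15 ± 0.46 (n = 5) for synthesis, 0.28 ± 0.37 for efflux and -0.13 ± 0.63 for their difference.

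By time label, the synthesis mean of HFC minus LFC was below 0 at 7 of 10 labels, with a mean of -0.57 ± 0.81 (SD over time labels). It was -2.29 at Week 12 and -1.77 at Week 18, where the LFC array is titled. Between Day 10 and Week 0, with neither array titled, it was -0.40, -0.39 and -0.37, and at Week 3 and Week 15 it was 0.19 and 0.08. Over these 5 labels the mean was -0.18 ± 0.29. At the 6 labels where both arrays shared a scan date it was -0.86 ± 0.94. The efflux mean of HFC minus LFC was 0.10 ± 0.69 over 10 labels and below 0 at 3 of them. The general adipocyte markers moved with the synthesis list at Week 12 (-2.41) and Week 18 (-2.19), and their part in the result was not tested.

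**Figure D3:**
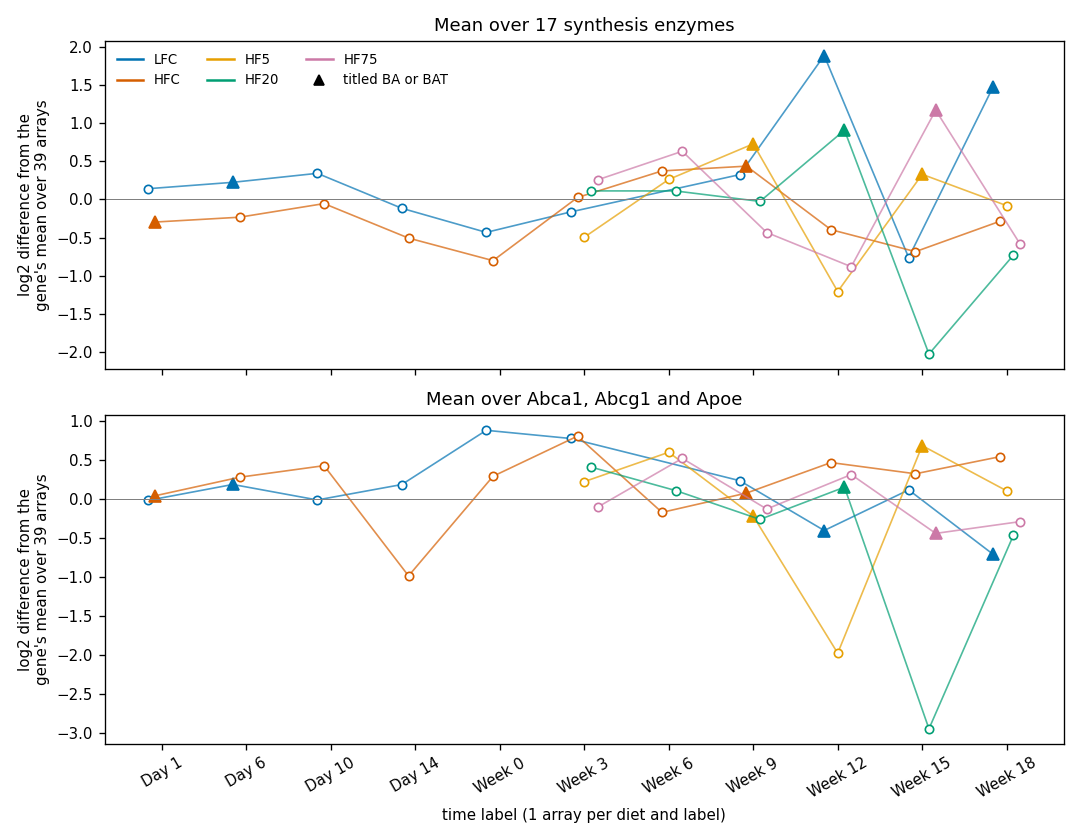
Mean of the centred levels of 17 synthesis enzymes and of 3 efflux genes on each array, by time label and diet, in log2 units, with titled arrays marked. The synthesis mean of LFC at Week 12 is 1.89, the highest of the 39 arrays, and the efflux mean of HF20 at Week 15 is -2.95, the lowest.

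The KAL-1 groups share 6 weeks with HFC. They were compared with HFC in the fit over all 39 arrays, so arrays of other time labels also enter the differences. All 3 contrasts use the same HFC arrays. For HF5 minus HFC, 14 members were above and 17 below 0, and the synthesis median was 0.06 against -0.03 over all probes. That direction depended on the titled arrays: without them 25 of 31 members were below 0, with 12 of 17 enzymes and a median of -0.16, and with the title as a term the median was -0.11. Without Week 15 it was -0.20, with 14 of 17 below 0. No member was called at the adjusted threshold, as for all probes (0%), and 0 members were under the unadjusted threshold, where 1.46% of probes were. The smallest p belonged to Acat2, which ran from -0.22 to 1.62 over 5 HF5 arrays (1 spot was dropped) with a difference of 0.77 (limma p = 0.067, adjusted p = 1). Sqle ran from -3.35 through -1.92 to 0.85 on HF5 arrays and differed by -0.89 (SE 0.56). Tm7sf2, a sterol reductase, ran from -3.38 through -1.02 to 0.12 and differed by -0.83. Both sets of HF5 values overlapped those of HFC.

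For HF20 minus HFC, 0 members were called at the adjusted threshold (0% of probes), and 1 member, Abca1, was under the unadjusted one, where 1.32% of probes were lower. Abca1 ran from -1.30 through 0.47 to 2.34 on HF20 arrays, and HF20 was lower than HFC at 5 of 6 weeks. The difference was -1.11 (SE 0.52, limma p = 0.0427, adjusted p = 0.998), and without the 3 arrays with over 10% of spots dropped, HF20 Week 15 among them, it was -0.66. Abcg1 was at -0.73 (SE 0.54) and Apoe at -0.41 (SE 0.52), so that all 3 efflux genes were below 0. The 4 sensing genes were below 0 as well with a median of -0.71, and Insig2, which ran from -2.30 through 0.25 to 1.87 on HF20 arrays, had the smallest p of them at -0.89 (limma p = 0.0985). The synthesis median was -0.12, with 10 of 17 below 0, and it was 0.16 with 6 of 17 below 0 without Week 18. Without the titled arrays it was -0.20.

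For HF75 minus HFC, 0 members passed either threshold, against 0% of probes adjusted and 3.56% unadjusted. Abca1 ran from -0.27 through 0.53 to 2.40 on HF75 arrays, with a difference of -0.90 (SE 0.52, limma p = 0.0976, adjusted p = 1). Lipa, which ran from 0.20 through 0.41 to 2.04, was at -0.73. Acat2, which ran from -0.38 through 0.58 to 1.10, was at 0.52, the next smallest p values. The synthesis median was 0.07, and -0.14 without the titled arrays. The HF75 array of Week 15 is titled and held the highest HF75 value of Abca1, Lipa and Acat2. The sign of Lipa turned with the scan date as a block (0.043).

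Abca1 was below 0 at each dose, at -0.66 (SE 0.52) for HF5, -1.11 for HF20 and -0.90 for HF75, against shared HFC arrays. Without the titled arrays these values were -1.31 (SE 0.48, limma p = 0.0119, adjusted p = 0.29), -1.37 (SE 0.45, p = 0.00566, adjusted p = 0.581) and -1.20 (SE 0.45, p = 0.0141, adjusted p = 0.698). Lipa, which frees cholesterol from esters in the lysosome, followed with -1.29 (SE 0.41, p = 0.00463, adjusted p = 0.248), -1.06 (SE 0.41, p = 0.0179, adjusted p = 0.581) and -0.91 (SE 0.38, p = 0.0273, adjusted p = 0.717) on the same arrays. In that setting 7, 5 and 2 of the 31 members were under the unadjusted threshold for HF5, HF20 and HF75, against 12.3%, 8.21% and 6.48% of probes, and 0 were called. Among them, Tm7sf2 in HF5 had the smallest p, with -1.65 (SE 0.42, p = 0.000786, adjusted p = 0.244). Its lowest HF5 value, -3.38, was at Week 12. With the titled arrays kept, its difference was -0.83, and -0.40 without Week 12. Without the titled arrays, 4 weeks with both arrays were left for each dose. The highest Abca1 and Lipa values of each dose lay on titled arrays. These were HF5 Week 15, HF20 Week 12 and HF75 Week 15. The lowest Abca1 values of HF5 (-1.50, Week 12) and HF20 (-1.30, Week 15) stayed in. On those arrays 18.6% and 71.4% of spots were dropped.

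The dose trend, fitted per step of dose from HFC to HF75 over 24 arrays, gave 0 members under either threshold, against 0% of probes adjusted and 7.04% unadjusted. Sc5d had the smallest p, with a slope of 0.22 per step (limma p = 0.0965), followed by Abca1 at -0.34 per step (p = 0.101) and Npc2 at -0.23. The synthesis list had 12 of 17 slopes above 0 with a median of 0.04, and all probes a median of 0.02. Without the titled arrays 11 of 17 were below 0 with a median of -0.041, and without Week 15 it was 10 of 17 with a median of -0.064.

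The trend over time used the 21 LFC and HFC arrays and is the change per doubling of elapsed days. No member was called at the adjusted threshold, and 0% of probes were. At the unadjusted threshold 2 members were higher with time and 1 lower, against 4.06% of probes higher and 7.86% lower. Npc2 had a slope of 0.42 (limma p = 0.0133, adjusted p = 0.307), but without Day 1, where LFC was at -4.38, the slope was 0.03. Stard4 had a slope of -0.20 (p = 0.0227, adjusted p = 0.347), with LFC levels between 0.03 at Week 12 and 1.53 at Week 3, and HFC levels between -1.93 at Week 6 and 1.82 at Day 6. Sc5d had a slope of 0.17 (p = 0.0304, adjusted p = 0.37). The synthesis list had 13 of 17 slopes above 0 with a median of 0.06, where all probes had a median of -0.05. Without the titled arrays 10 of 17 were below 0 with a median of -0.065, against 0.0080 over all probes, and with array weights 9 of 17 were below 0 with a median of -0.0069.

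Last, the titled arrays were compared with the others. With diet and time label in the model, 22 of 31 members were higher on the 9 titled arrays and 1 was lower at the adjusted threshold, against 20.5% of all probes higher and 31.8% lower. All 17 synthesis enzymes were above 0, 13 of them past the threshold, with a median of 1.25 where all probes had a median of -0.30. The direction depended on the background correction for some: under normexp correction, which moved the median of all probes to -1.38, the synthesis median was 0.48 and Mvk, Mvd, Sqle, Cyp51, Nsdhl, Hsd17b7, Srebf2 and Npc1 were below 0. Scaling also moved the split of all calls, of which 39.2% were higher on titled arrays, 66.6% under quantile normalization, 25.5% under normexp correction and 84.0% with array brightness as a term. Over 24 alternative settings, 19 of the 23 called members kept their direction in each, and Hmgcs1, Sc5d, Dhcr7, Scap, Insig2 and Nr1h3 were called in each.

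Dhcr7 had the greatest difference of the 31. Its level ran from 0.35 through a median of 1.73 to 3.42 on the titled arrays and from -3.03 through 0.13 to 1.31 on the others. The groups overlapped, and the difference was 2.34 (SE 0.35, limma adjusted p = 6.76e-05), a 5.07-fold higher level. Lss ran from -3.16 through -0.79 to 0.56 on titled arrays and from -4.22 through -3.17 to -0.56 on others, with a difference of 2.15 (SE 0.38, adjusted p = 0.000177). Insig1 ran from -1.38 through -0.25 to 2.02 against -4.12 through -2.12 to -0.10, with a difference of 2.20 (SE 0.43, adjusted p = 0.000456).

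Among the mevalonate enzymes, Pmvk ran from 1.78 through 3.77 to 5.38 on titled arrays and from 0.44 through 2.50 to 3.62 on others, a difference of 1.63 (SE 0.31, adjusted p = 0.000312). Fdps ran from 0.21 through 1.39 to 3.09 on titled arrays and from -1.44 through -0.13 to 1.68 on others, a difference of 1.77 (SE 0.39, adjusted p = 0.000992). Hmgcs1 ran from 2.80 through 4.46 to 5.24 on titled arrays and from 1.19 through 3.21 to 4.93 on others, a difference of 1.34 (SE 0.32, adjusted p = 0.00178). For these enzymes the median of the titled arrays was above that of the others by more than 1 log2 unit, while the ranges overlapped. Mvk ran from -1.83 through -1.29 to -0.63 on titled arrays and from -3.68 through -2.23 to -0.58 on others, a difference of 1.15 (SE 0.32, adjusted p = 0.00518). Idi1 ran from 0.65 through 1.59 to 3.43 on titled arrays and from -0.72 through 1.03 to 2.57 on others, a difference of 0.89 (SE 0.32, adjusted p = 0.0202). Acat2 at 0.32 (SE 0.31) and Mvd at 0.62 (SE 0.33) were not called.

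In the squalene steps, Fdft1 ran from -1.09 through 2.09 to 2.76 on titled arrays and from -1.82 through 0.25 to 2.33 on others, a difference of 1.99 (SE 0.41, adjusted p = 0.000629), although its dimmer probe gave -0.84. Sqle, at 0.64 (SE 0.43), was not called. After lanosterol, Tm7sf2 ran from -1.72 through 0.02 to 1.38 on titled arrays and from -3.38 through -0.99 to 1.02 on others, a difference of 1.50 (SE 0.35, adjusted p = 0.00133). Cyp51 ran from -3.06 through -2.31 to -1.02 on titled arrays and from -4.96 through -3.12 to -0.99 on others, a difference of 1.28 (SE 0.39, adjusted p = 0.00808). That probe was well above background on 24 arrays. Further Cyp51 probes, well above background on 23 and 22 arrays, gave -0.37 (SE 0.36) and 0.75 (SE 0.43), and neither was called. Nsdhl, which removes a methyl group of the sterol ring, ran from -2.14 through -1.00 to 0.72 on titled arrays and from -3.37 through -1.89 to -0.57 on others, a difference of 1.25 (SE 0.40, adjusted p = 0.0114). Cyp51 and Nsdhl are among the genes whose sign turned under normexp correction. Sc5d ran from 1.06 through 2.18 to 3.90 on titled arrays and from 0.18 through 1.51 to 2.38 on others, a difference of 1.10 (SE 0.26, adjusted p = 0.00146). Ebp ran from 3.47 through 4.24 to 4.50 on titled arrays and from 0.71 through 3.64 to 4.81 on others, a difference of 0.84 (SE 0.31, adjusted p = 0.0238). Hsd17b7, a ketoreductase of the same steps, was at 0.38 (SE 0.39) and not called.

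Of the sensing genes besides Insig1, Insig2 ran from 0.10 through 1.65 to 2.17 on titled arrays and from -2.30 through 0.51 to 1.11 on others, a difference of 1.36 (SE 0.33, adjusted p = 0.00171). Scap ran from 2.85 through 3.33 to 3.80 on titled arrays and from 0.61 through 2.69 to 3.90 on others, a difference of 1.16 (SE 0.28, adjusted p = 0.00154). The titled values of both lay toward the upper end of all arrays. Srebf2, at 0.42 (SE 0.39), was not called, and its second probe, well above background on 10 arrays, was lower on the titled arrays at -1.32 (adjusted p = 0.0118).

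In storage and transport, Npc1 ran from -1.57 through -0.95 to -0.55 on titled arrays and from -3.88 through -2.19 to -0.25 on others, a difference of 1.62 (SE 0.30, adjusted p = 0.000251). Lipa ran from 0.14 through 2.09 to 2.95 on titled arrays and from -1.45 through 0.73 to 1.97 on others, a difference of 1.58 (SE 0.32, adjusted p = 0.000512). Npc2 ran from 0.72 through 4.24 to 4.55 on titled arrays and from -4.38 through 2.71 to 4.11 on others, a difference of 1.35 (SE 0.45, adjusted p = 0.0151). Without Day 1, where the LFC array was at -4.38, the Npc2 difference was 0.72. Npc2 kept its direction but was not called in 7 of 24 alternative settings. Within scan dates, titled minus other for Npc2 was 1.35 at Week 12, 1.59 at Week 15 and -2.14 at Week 18. These 3 lysosomal genes were called higher, and Soat1, which stores cholesterol as ester, was the member called lower by its brightest probe. Soat1 ran from -4.45 through -3.30 to -0.49 on titled arrays and from -4.03 through -0.96 to 1.07 on others, a difference of -1.89 (SE 0.49, adjusted p = 0.00301). Stard4, at -0.51 (SE 0.40), was not called by its brightest probe. Of its further probes, 1 was lower on the titled arrays at -1.45 (SE 0.42, limma adjusted p = 0.00728). The other, at -0.94 (SE 0.49), was not called. These dimmer probes were well above background on 20 and 18 arrays.

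The receptors and the efflux genes did not move as 1 group on the titled arrays. Nr1h3 ran from 0.50 through 2.85 to 4.25 on titled arrays and from -1.62 through 1.10 to 3.01 on others, a difference of 1.82 (SE 0.41, adjusted p = 0.00104). Nr1h2 ran from 0.83 through 1.19 to 2.83 on titled arrays and from -2.69 through 0.70 to 2.16 on others, a difference of 0.93 (SE 0.33, adjusted p = 0.0206). Abca1 ran from 0.48 through 2.20 to 2.45 on titled arrays and from -1.50 through 0.98 to 2.50 on others, a difference of 1.25 (SE 0.35, adjusted p = 0.00469). Both receptors and Abca1 thus rose. Abcg1, with medians of -0.72 and 0.45, was at -0.64 (SE 0.42) and Apoe, with medians of 6.12 and 7.01, at -0.03 (SE 0.45), neither called. For Apoe the sign turned under quantile normalization (0.21), under normexp correction (1.31) and with array brightness as a term (1.15).

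**Figure D4:**
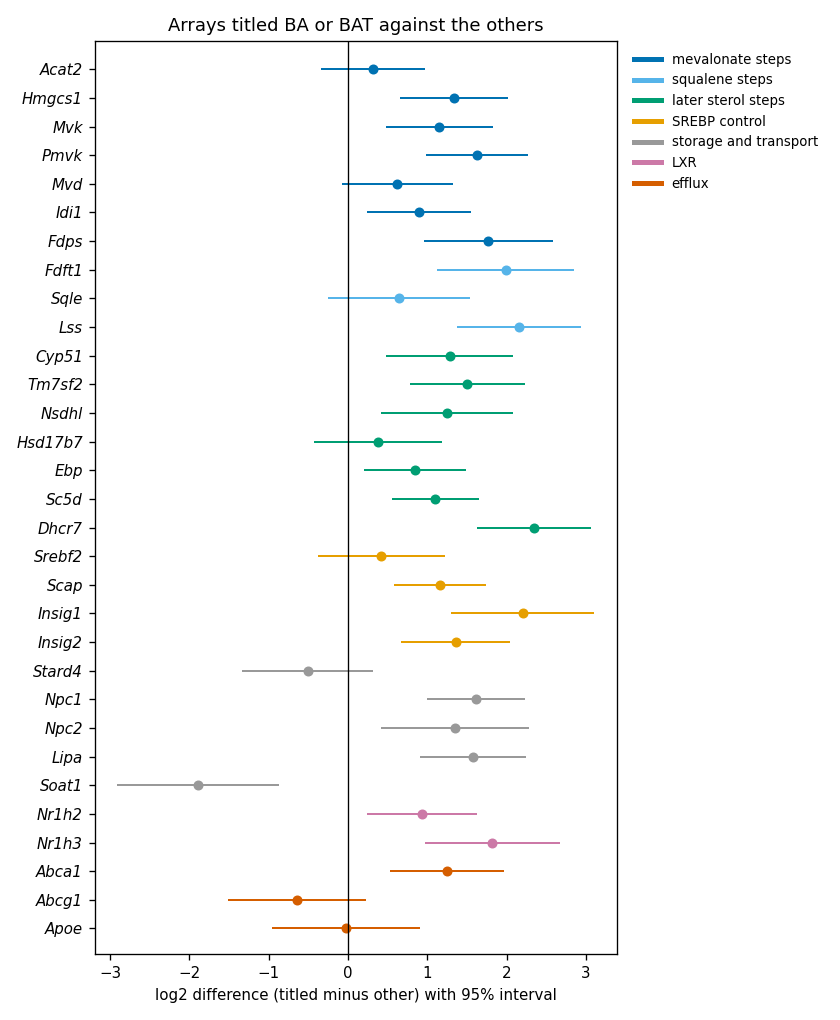
Difference on the log2 scale between the 9 titled arrays and the 30 others for each of the 31 genes, with 95% intervals, from the model with diet and time label. Dhcr7 is highest at 2.34 and Soat1 lowest at -1.89, and the 17 synthesis enzymes all lie above 0.

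The titled difference was also seen within scan dates, on arrays that the fit above includes. The titled arrays were LFC and HF20 at Week 12, HF5 and HF75 at Week 15, and LFC at Week 18. The others were of other diets, so title and diet cannot be told apart within a date. At Week 12, with 2 titled and 3 other arrays of 1 date, the synthesis mean was 2.23 higher on the titled arrays, and 17 of 17 enzymes were higher. At Week 15, again with 2 and 3 arrays, it was 1.91 higher with 17 of 17, and at Week 18, with 1 and 2 arrays, 1.66 higher with 16 of 17. Without the arrays with over 10% of spots dropped (HF5 and HFC at Week 12, HF20 at Week 15), it was 2.28 and 1.47 higher at the first and second of these weeks. The efflux mean of titled minus other arrays was 0.27 at Week 12, 0.96 at Week 15 and -1.03 at Week 18. Without the same arrays it was -0.44 at Week 12 and -0.099 at Week 15, so the sign turned at both. Over all arrays the synthesis mean was 0.76 ± 0.68 (SD, n = 9) on titled arrays and -0.28 ± 0.55 (n = 30) on the others, and the efflux mean -0.07 ± 0.42 and 0.01 ± 0.79.

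Markers of cell types moved with the title too. Of 12 macrophage markers 12 were lower on titled arrays, 8 past the threshold, with a median difference of -1.11, and their mean level spanned -1.43 to -0.19 on titled and -1.90 to 2.15 on other arrays. Of 12 general adipocyte markers 11 were higher, 9 past the threshold, with a median of 1.69 and mean levels of -0.77 to 2.13 on titled and -3.51 to 1.47 on other arrays. Fabp4, the remaining marker, was lower past the threshold at -2.36, with means of 6.62 on titled and 9.09 on other arrays. Of all probes, 20.5% were higher and 31.8% lower past the threshold. All 7 neutrophil markers fell, with a median of -4.65. The title did not divide the arrays cleanly. Titled HFC Day 1 had mean levels of 0.88 for neutrophil and -0.77 for general adipocyte markers, and a synthesis mean of -0.30. For HFC Week 6, which is not titled and stayed in the fits without titled arrays, these were -4.77, 1.47 and 0.37. The part of these cell types in the sterol differences was not tested. Brightness ran from 123.6 to 1289 units on the titled arrays, and all of them but LFC Day 6 were at 310.3 or above. The others ran from 18.1 to 270.8, apart from HFC Week 6 (747.6), HFC Week 12 (949.6) and HF20 Week 15 (3974). Title and brightness thus went together on most arrays. With array brightness as a term, chosen after the data were seen, 11 members stayed past the threshold.

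**Figure D5:**
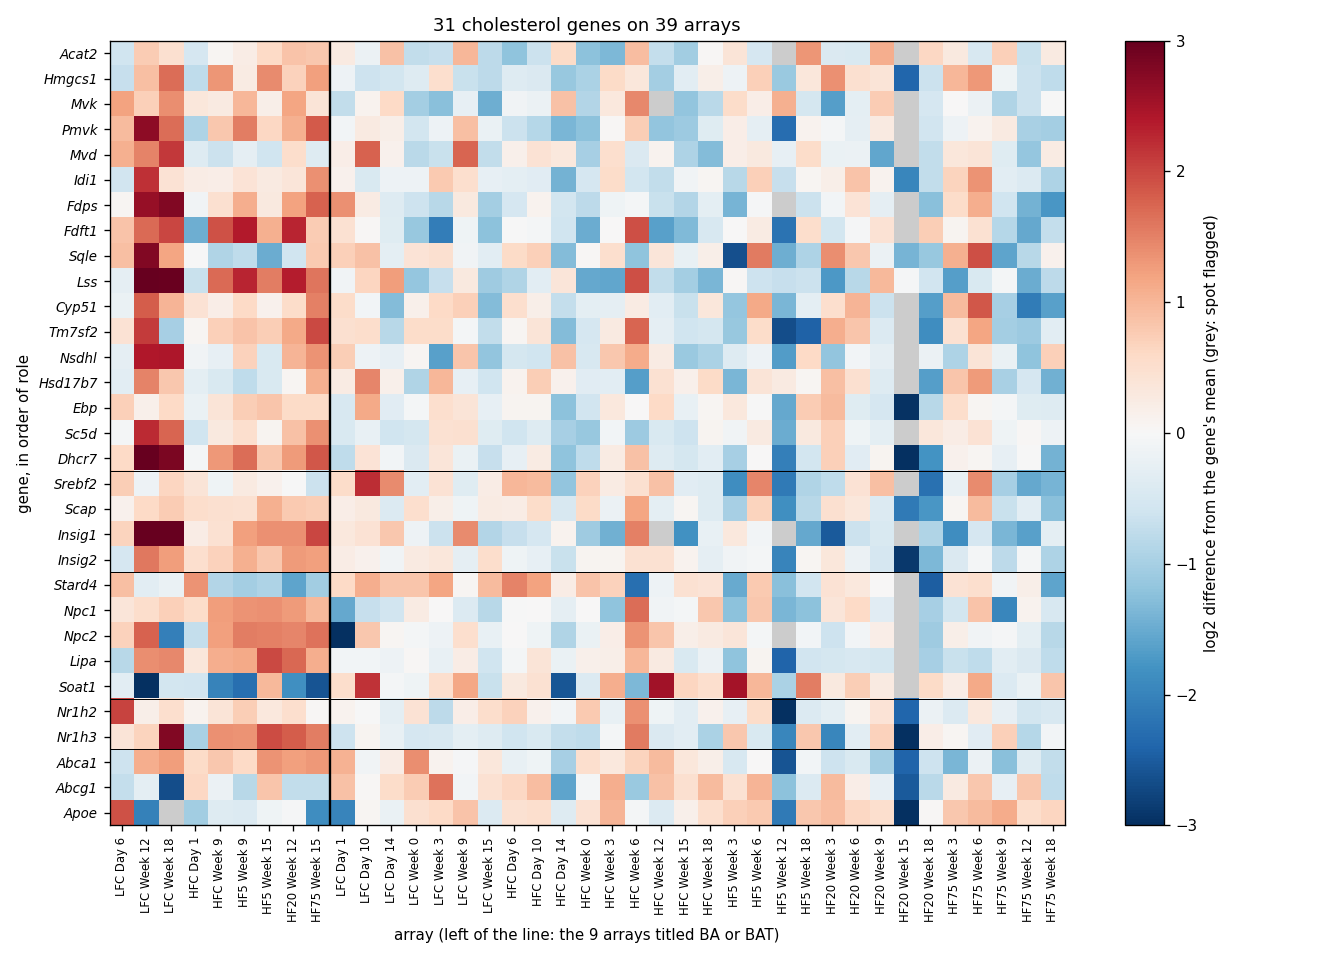
Centred log2 level of the 31 genes (rows, by role) on the 39 arrays (columns), with the 9 titled arrays left of the line. Synthesis rows are high in most titled columns, where their array means average 0.76, and Soat1 and Abcg1 rows are low in most of them.

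Related pathways moved as follows. The fatty acid synthesis genes, targets of the sister factor SREBP1, were below 0 in HFC for 12 of 12, with a median of -1.96 and 8 under the unadjusted threshold, where 0.855% of all probes were lower. The synthesis list of cholesterol had a median of -0.49 in the same contrast. Of 20 further sterol genes tested, 16 were below 0 with a median of -0.13, and Acly, which supplies cytosolic acetyl-CoA, was lowest at -2.58 (adjusted p = 0.109). Acly is also 1 of the 12 fatty acid synthesis genes, so these lists are not separate. Of 11 further genes linked to LXR, the partner gene Rxrb among them, 6 were below 0 with a median of -0.07. On titled arrays 11 of the 20 sterol genes were higher and 3 lower past the threshold, and 3 and 1 of the 11 genes linked to LXR, where 20.5% of all probes were higher and 31.8% lower.

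After diet and time label were removed, the members were related to the mean of the synthesis list over the 39 arrays. The title was not removed, so genes that moved with it also move together here. The arrays also differ in brightness and in the level of cell type markers. Pearson's r was 0.91 for Dhcr7, 0.89 for Fdps, 0.87 for Pmvk and 0.85 for Hmgcs1, each set against the mean of the other enzymes. Outside the list it was 0.85 for Scap and Insig2, 0.79 for Abca1, 0.74 for Nr1h3, 0.06 for Apoe, -0.09 for Abcg1, -0.17 for Stard4 and -0.50 for Soat1. Of 33730 probes compared, those most like the synthesis mean were LOC634846 (0.97), Gm8163 (0.93) and Gm4948 (0.92). On the titled arrays these were higher by 1.53, 1.52 and 2.21. RefSeq lists Gm8163 and Gm4948 as pseudogenes, and these values are descriptions with no test.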

How the data were processed

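RNA was hybridised by the authors to 39 Agilent one-colour mouse arrays. The deposited files of the scanner give, for each spot, a processed intensity with background already subtracted, made per the labels with Feature Extraction 9.1 and per the file headers with version 10.5.1.1. The deposited series table holds log2 ratios to the LFC array of the same time label. It was used here only to name probes.

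The log2 processed intensity minus the array's 75th percentile was taken, outlier spots were dropped, and probes had to lie well above background on 6 or more arrays, leaving 34036 of 40628 probes and 24721 genes. The number of arrays limits the precision. Differences were tested two-sided in limma 3.58.1 (R 4.3.3, statmod 1.5.0), additive in diet and time label over all 39 arrays, and adjusted by Benjamini-Hochberg over all probes at 0.05. The dose trend used 24 arrays and the time trend 21. Same-label LFC and HFC arrays deviated together at 5 of 10 labels (residual correlation over 0.1, median 0.159). P-values measure the spread between arrays over time labels, which may be technical.

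Members and lists were chosen with earlier results of these data known. Named genes are those past the threshold, otherwise the 3 smallest p, and genes fixed for each role. The fit was tested on simulated data. Alternatives covered normalization, background, filters, blocks, titled arrays and each time label left out. Promoter letters came from RefSeq (GRCm38.p6).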

Additional observations from a re-analysis of the deposited data

Results flagged for a closer look

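A value is given here where it lay farther from the others of its diet group than Dixon's test allows at 95%. Of 126 groups tested 15 (11.9%) held such a value, where chance gives about 1 in 20, and 9 of the 15 values lay on titled arrays. None was given a test of its cause. HFC groups with a value on all 11 arrays were not tested. That left out HFC for every member but Mvk and Insig1, so no HFC value of the others could be listed.

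On the titled LFC Week 12 array, Idi1 (3.43), Sqle (2.08) and Tm7sf2 (1.38) were the highest of LFC. The titled LFC Week 18 array held the highest LFC value of Nr1h3 (4.25), and the titled LFC Day 6 array that of Nr1h2 (2.83). On the titled HF20 Week 12 array, Lipa (2.68) was the highest and Soat1 (-3.30) the lowest of HF20. On the titled HF75 Week 15 array, Lipa (2.04) was the highest and Apoe (4.64) the lowest of HF75.

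On arrays that are not titled, Ebp (2.13), Sc5d (0.18) and Nr1h2 (-2.69) were the lowest of HF5 at Week 12, where 18.6% of spots were dropped. Nr1h2 (-1.57) and Apoe (2.58) were the lowest of HF20 at Week 15, where 71.4% were dropped. Npc2 (-4.38) was the lowest of LFC at Day 1.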

How the results depend on the processing

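No paired analysis was possible because replicate numbers only follow accession order, and the time label served as the block. No member passed the adjusted threshold in a diet, dose or time contrast under any setting run. The causes of changes between settings were not tested. The settings with exchanged Day 14 labels and with array brightness as a term, and the array means given without some arrays, were chosen after seeing the data.

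The number of probes called for HFC against LFC was 0, and 3 under quantile normalization, 32 with array weights, 2 without titled arrays, 4 with the title as a term, 1 without the Week 12 HF20 array and 5 with array brightness. For HF75 against HFC it was 3 without titled arrays and 1 with the title term, for the dose trend 23 with array weights and 74 with the title term, and for the time trend 5 under quantile normalization, 5 with probes well above background on at least 20 arrays and 158 with array weights. For titled arrays it was 17825, and 10427 under quantile normalization, 28173 under normexp, 11476 with at least 20 arrays and 3940 with brightness, where 11 members were called. The synthesis median on titled arrays was 0.48 under normexp and 2.03 with scan date as a block, and the efflux median 1.31 under normexp and 1.15 with brightness.

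Signs that turned for HFC against LFC were these. Quantile normalization gave Mvk -0.12 and Abcg1 -0.022. Normexp gave Mvk -0.40, Npc1 -0.20 and Abca1 0.17. Array weights gave Hsd17b7 0.047, Srebf2 0.17, Scap 0.034, Stard4 0.050, Nr1h2 0.14 and Abcg1 -0.39. Scan date as a block gave Mvk -0.16, Lipa -0.28 and Soat1 0.26, and Lipa 0.043 for HF75 against HFC. Without titled arrays Fdps was 0.024, Fdft1 0.36, Nsdhl 0.35, Npc2 -0.010, Nr1h2 0.22, Nr1h3 0.10 and Abcg1 -0.51. Exchanged Day 14 labels gave Srebf2 0.088 and Soat1 0.36, brightness gave Lipa -0.043 and Soat1 0.024, and the mean over a gene's probes gave Fdft1 0.18, Stard4 0.22 and Soat1 0.19.

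For titled arrays, normexp gave Mvk -0.66, Mvd -0.79, Sqle -0.013, Cyp51 -1.09, Nsdhl -0.50, Hsd17b7 -0.72, Srebf2 -1.18, Npc1 -0.40 and Apoe 1.31. Apoe was 0.21 under quantile normalization, 0.13 with scan date and 0.18 with slide as a block, and 1.15 with brightness, which also gave Stard4 0.61 and Abcg1 0.14. The mean over probes gave Srebf2 -0.45.

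With each time label left out in turn, the synthesis median ranged from -0.66 to -0.34 for HFC against LFC and from 0.94 to 1.44 for titled arrays. It turned sign for each dose against HFC, from -0.20 (without Week 15) to 0.18 for HF5, from -0.33 to 0.16 (without Week 18) for HF20 and from -0.40 (without Week 15) to 0.33 for HF75. The efflux median for HFC against LFC ranged from -0.19 to 0.17. Among members whose sign turned for HFC against LFC, Mvk ranged from -0.056 to 0.37, Soat1 from -0.72 to 0.20, Nr1h2 from -0.19 to 0.029, Abcg1 from -0.22 to 0.40 and Apoe from -0.19 to 0.21. For titled arrays Acat2 ranged from -0.00083 to 0.64 and Apoe from -0.25 to 0.43. Titled arrays gave 16 to 23 members and 10065 (without Week 12) to 20345 (without Day 1) probes called, HFC against LFC and the time trend 0 to 1 probes each, and the dose trend 0 to 7. The dose trend has no arrays before Week 3, so those labels were not left out there. Dim arrays, with as few as 31.2% of spots well above background, limit weak members such as Cyp51 and Lss.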
